A study of Mus musculus with 10 samples.

Results

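Of the 94823 accessible regions counted by ATAC-seq in thymic invariant natural killer T (iNKT) cells, 6376 (6.72%) lay in gene deserts, far from any protein-coding gene. A region was a far distal member when its midpoint fell outside every protein-coding gene body and more than 100 kb from every protein-coding gene start of GENCODE M21 (mm10). The rule used position alone and no measured value. The regions it was applied to, however, are merged peaks called in each of these same libraries. A region open in a single group could thus enter, and the groups differ in their number of libraries. The part of this in the direction of the calls was not tested. The members were a median of 186 kb from the nearest start and the farthest was 2410 kb away. Of them, 557 lay beyond 500 kb, 6154 were autosomal, 222 were on the X chromosome, 1412 (22.1%) lay inside a long non-coding RNA (lncRNA) gene and 169 lay in the antigen receptor loci, whose V, D, J and C segments are not typed as protein-coding genes. Of all regions, 8.57% lay inside a lncRNA gene.

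ATAC-seq marks open chromatin by the sites at which a transposase inserts sequencing adapters. Cells were sorted from the thymus as iNKT1 (CD27+ CD122+) and iNKT2 (CD27+ CD122-) of BALB/c and SKG mice. SKG mice have the BALB/c background and a hypomorphic mutation of Zap70, the kinase that passes the T cell receptor (TCR) signal on. The SKG mutation is carried in the germline and so by every cell of the mouse, and BALB/c mice with wild-type Zap70 were the controls. There were 2 libraries of BALB/c iNKT1, 2 of SKG iNKT1, 3 of BALB/c iNKT2 and 3 of SKG iNKT2 cells. The labels give no treatment, and the mice were 8 to 10 weeks old. Nothing says that the libraries came from separate mice, so the p-values measure the spread between these libraries, which may be technical.

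Far distal elements act on genes across long stretches of DNA, commonly as enhancers that loop to a promoter, and several genes of T cell development, among them Bcl11b, Myc and Id2, lie next to deserts that hold such elements. iNKT cells carry a semi-invariant TCR that recognises lipids on CD1d. The iNKT1 subset expresses the T-box factor T-bet and makes IFN-γ, and the iNKT2 subset expresses high PLZF and makes IL-4. Signals through ZAP-70 activate NFAT, AP-1 and Egr factors, whose binding motifs were among those searched here. The nearest protein-coding start is given for each member as a position and was not tested as its target.

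The sequences that follow are the central 300 bases (mm10, plus strand) of some of the members with the largest called changes between subsets or genotypes. Their levels are described later. Capitals mark matches on either strand to the searched motifs, which were T-box (AGGTGTGA), Runx (AAACCACA), ETS (CAGGAAGT), NFAT (TGGAAAA), Egr (GCGTGGGNG), TCF/LEF (ATCAAAGG), NF-kB (GGNATTTCC), E protein (GCAGCTG), AP-1 (TGANTCA) and CTCF (CNAGGGGGC). No searched motif is contained in another, although matches may overlap in the sequence. The first of these windows was high only in BALB/c iNKT2 libraries and holds an E protein and an NFAT match.
chr16:78161966-78162265: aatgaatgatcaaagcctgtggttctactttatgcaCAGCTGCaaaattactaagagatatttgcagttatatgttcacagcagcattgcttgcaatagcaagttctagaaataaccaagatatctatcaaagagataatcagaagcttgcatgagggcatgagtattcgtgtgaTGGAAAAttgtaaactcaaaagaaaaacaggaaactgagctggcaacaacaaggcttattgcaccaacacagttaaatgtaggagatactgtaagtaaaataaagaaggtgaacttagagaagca
The next, also high in BALB/c iNKT2 libraries, holds a TCF/LEF match.
chr2:144941328-144941627: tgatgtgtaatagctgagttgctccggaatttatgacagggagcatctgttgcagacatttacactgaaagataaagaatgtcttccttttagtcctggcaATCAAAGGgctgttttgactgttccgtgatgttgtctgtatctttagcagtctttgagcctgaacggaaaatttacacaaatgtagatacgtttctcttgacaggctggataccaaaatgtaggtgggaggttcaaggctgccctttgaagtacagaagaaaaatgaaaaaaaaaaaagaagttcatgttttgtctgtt
These 2 windows were open in iNKT1 libraries and near 0 in iNKT2 libraries. Each holds an AP-1 and a Runx match, and the second has Eomes, a T-box factor gene, as its nearest start.
chr2:34139820-34140119: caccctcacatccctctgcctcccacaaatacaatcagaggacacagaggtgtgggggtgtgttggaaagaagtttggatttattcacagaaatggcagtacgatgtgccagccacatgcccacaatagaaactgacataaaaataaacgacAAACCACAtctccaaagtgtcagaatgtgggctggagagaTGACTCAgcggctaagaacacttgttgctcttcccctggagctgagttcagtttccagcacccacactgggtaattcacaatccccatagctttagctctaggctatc
chr9:118374757-118375056: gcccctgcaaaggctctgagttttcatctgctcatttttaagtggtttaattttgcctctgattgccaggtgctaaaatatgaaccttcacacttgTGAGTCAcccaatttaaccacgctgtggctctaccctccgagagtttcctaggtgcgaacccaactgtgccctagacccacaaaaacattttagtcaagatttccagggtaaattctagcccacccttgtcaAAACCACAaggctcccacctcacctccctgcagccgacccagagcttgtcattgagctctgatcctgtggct
This window was high in iNKT2 libraries of both genotypes, in the desert before Sox4, and holds an NFAT match and a pair of overlapping E protein matches.
chr13:28416161-28416460: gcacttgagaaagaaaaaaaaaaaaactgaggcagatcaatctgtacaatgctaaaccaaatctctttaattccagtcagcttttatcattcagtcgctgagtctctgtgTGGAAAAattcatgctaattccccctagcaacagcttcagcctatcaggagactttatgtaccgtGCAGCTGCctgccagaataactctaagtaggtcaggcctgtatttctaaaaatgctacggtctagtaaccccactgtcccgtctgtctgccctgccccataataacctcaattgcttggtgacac
This window was open in SKG libraries of both subsets and holds an AP-1 match.
chr10:100741142-100741441: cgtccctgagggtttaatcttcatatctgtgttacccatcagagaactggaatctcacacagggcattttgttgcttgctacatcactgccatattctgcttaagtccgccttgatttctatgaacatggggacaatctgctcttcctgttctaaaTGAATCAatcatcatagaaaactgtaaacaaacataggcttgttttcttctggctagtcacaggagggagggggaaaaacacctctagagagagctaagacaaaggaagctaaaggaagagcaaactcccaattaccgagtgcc
This window was open in BALB/c libraries of both subsets and holds no searched motif.
chr15:87074715-87075014: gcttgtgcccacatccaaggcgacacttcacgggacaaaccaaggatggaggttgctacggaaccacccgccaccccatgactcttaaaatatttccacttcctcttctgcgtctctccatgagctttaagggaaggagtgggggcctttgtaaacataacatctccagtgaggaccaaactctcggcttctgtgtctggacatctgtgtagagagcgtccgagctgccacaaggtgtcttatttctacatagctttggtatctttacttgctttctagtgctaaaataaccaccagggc
These windows were open in BALB/c iNKT2 libraries and near 0 in the other 3 groups. The first holds a pair of NFAT matches and the second an AP-1 match.
chr2:99472958-99473257: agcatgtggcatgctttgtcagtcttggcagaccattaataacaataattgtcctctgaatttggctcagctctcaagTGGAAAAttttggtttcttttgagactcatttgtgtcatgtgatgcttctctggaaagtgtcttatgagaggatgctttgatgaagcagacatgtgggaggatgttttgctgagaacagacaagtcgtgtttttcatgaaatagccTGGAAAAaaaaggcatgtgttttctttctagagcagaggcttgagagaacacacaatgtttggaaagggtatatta
chr16:64364499-64364798: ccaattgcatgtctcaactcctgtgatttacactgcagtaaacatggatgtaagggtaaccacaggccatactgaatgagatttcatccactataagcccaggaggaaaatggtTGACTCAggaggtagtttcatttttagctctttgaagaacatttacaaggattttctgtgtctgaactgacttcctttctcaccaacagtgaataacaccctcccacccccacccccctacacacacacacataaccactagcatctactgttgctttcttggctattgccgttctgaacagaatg
A match is a description of the letters and not a site of binding. Among windows of such members not printed, those nearest Arhgap20, Tle3, Mki67, Teddm2, Adgrl2 and Cpeb2 held no searched motif. The same was true of chr10:100695990-100696289 and chr15:87073961-87074260. Those nearest Trib2 (Runx) and Lcorl (TCF/LEF) and chr15:87088724-87089023 (ETS) each held a match. The printed windows thus hold matches more often than these.

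Levels are insertions per 1000000 (CPM), counted over the library total scaled by its TMM factor. The libraries held 14988590 to 36342635 insertions over all regions, and the median member held 20 to 96.5 insertions per library. Members with 0 insertions numbered 7, 18 and 25 in BALB/c iNKT2 and 52, 147 and 181 in SKG iNKT2 libraries. They numbered 216 and 304 in BALB/c iNKT1 and 527 and 386 in SKG iNKT1 libraries. Of all members, 5298 had at least 1 insertion in each of the 10 libraries. The share of all insertions that fell in far distal members was 4.14%, 3.97% and 3.84% in BALB/c iNKT2 libraries and 3.14%, 3.20% and 3.17% in SKG iNKT2 libraries. It was 3.46% and 3.35% in BALB/c iNKT1 and 3.33% and 3.51% in SKG iNKT1 libraries. All BALB/c iNKT2 libraries thus lay above, and all SKG iNKT2 libraries below, the iNKT1 libraries of either genotype. In bulk libraries, fewer cells with an open region and less opening per cell cannot be told apart.

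The subset labels were checked at the starts of marker genes. The summed level at Tbx21, Il2rb, Cxcr3 and Ifng (4 of 4 iNKT1 markers with a region) ranged from 234.7 to 269.8 CPM in iNKT1 libraries and from 55.5 to 82.6 CPM in iNKT2 libraries. The summed level at Il17rb, Ccr7, Il6ra and Il4 (4 of 4 iNKT2 markers) ranged from 58.3 to 81.3 CPM in iNKT1 libraries and from 88.8 to 163.5 CPM in iNKT2 libraries, though at Il4 alone the group means lay between 22.9 and 33.3 CPM with iNKT2 inside the range of iNKT1. The iNKT17 cell markers Il17a, Il23r and Ccr6 each had a region, and their sum was 0.321 to 0.835 CPM in iNKT1, 11.8 to 17.4 CPM in BALB/c iNKT2 and 7.88 to 10.75 CPM in SKG iNKT2 libraries. Of 6 B cell and myeloid markers, Spi1 alone had a region, at 23.4 to 29.2 CPM in iNKT1 and 9.60 to 14.5 CPM in iNKT2 libraries.

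Far distal members differed between the BALB/c subsets in large number, mostly toward iNKT2. A region was called when the edgeR quasi-likelihood test gave an adjusted p below 0.01 over all regions and a fitted change of at least 4-fold. Of 6376 members, 2020 (31.7%) were more accessible in BALB/c iNKT2 cells and 635 (9.96%) in BALB/c iNKT1 cells, beside 15.5% and 6.36% of all regions. Together 41.6% of members were called (Wilson 95% interval 40.4% to 42.9%, counting error only), beside 21.9% of all regions. The median log2 change, iNKT2 over iNKT1, was 0.83 over members and 0.06 over all regions. Promoters, within 1 kb of a protein-coding start, were called in 4.51%, regions in gene bodies in 23.97% and other intergenic regions in 24.4%. These shares are descriptions, since neighbouring regions are not independent. Under quantile normalization 60.3% of the called members were higher in iNKT2, against 76.1% here, and library totals without TMM factors moved the median of all regions from 0.06 to 0.34.

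The SKG subsets differed at 1759 members. Of these, 995 (15.6%) were more accessible in SKG iNKT2 and 764 (12.0%) in SKG iNKT1 cells, beside 10.2% and 6.96% of all regions. Together 27.6% of members were called (26.5% to 28.7%), beside 17.1% of all regions, and the median log2 change was 0.43 against 0.14 over all regions. The balance of directions turned with the scaling. Of the called members, 56.6% were higher in SKG iNKT2 here, 43.6% with voom and TMM and 31.9% with quantile normalization, and library totals moved the median of all regions to 0.32.

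**Figure D1:**
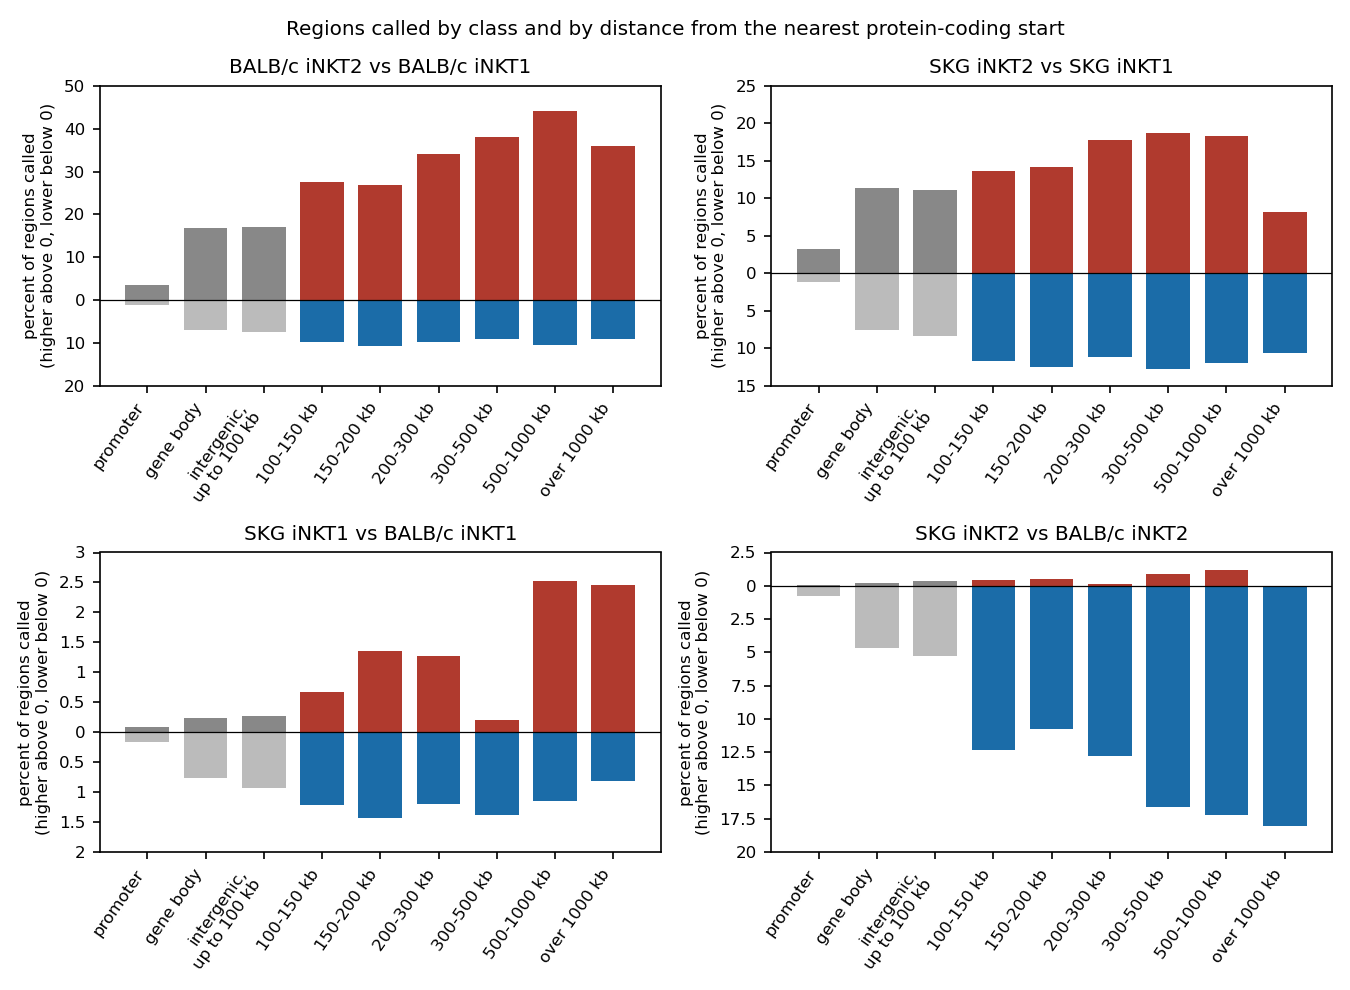
Percent of regions called in the 4 pairwise comparisons, with higher calls above 0 and lower calls below, for promoters, gene bodies and nearer intergenic regions (grey) and for far distal members by distance to the nearest protein-coding start in kb (coloured). Each panel has its own axis, and between the BALB/c subsets 37.5% of members at 100 to 150 kb and 54.7% at 500 to 1000 kb were called in either direction.

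Distance from a start went with the share called between BALB/c subsets. It was 37.5% of 2067 members at 100 to 150 kb, 37.7% at 150 to 200 kb, 43.9% at 200 to 300 kb, 47.1% at 300 to 500 kb, 54.7% of 435 members at 500 to 1000 kb and 45.1% of 122 members beyond. Between SKG subsets the shares in the same order were 25.4%, 26.8%, 29.0%, 31.5%, 30.3% and 18.85%, the last being the lowest. Between SKG iNKT2 and BALB/c iNKT2 they were 12.8%, 11.2%, 12.9%, 17.5%, 18.4% and 18.03%. All 22 members called beyond 1000 kb in that comparison were lower in SKG iNKT2. Inside lncRNA genes 39.4% of members were called between BALB/c subsets and outside them 42.3%.

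Members held fewer insertions and a lower GC content than other regions. Their medians were 52.7 insertions per library and 45.7% GC, beside 76.8 and 49.0% over all regions, with widths of 334.5 and 343 bp. Compared with gene-body and nearer intergenic regions of like GC, the members' share called between BALB/c subsets was 50.1% against 26.5% below 40% GC, 40.3% against 26.5% at 45 to 50% and 26.6% against 14.6% at 55% or above. Compared at like counts, it was 58.7% against 38.3% below 36.2 mean insertions, 43.6% against 23.9% up to 76.8, 29.2% against 18.8% up to 223.9 and 16.7% against 9.27% beyond. Between SKG iNKT2 and BALB/c iNKT2 the shares at like counts were 23.0% against 10.4%, 13.1% against 4.75%, 7.49% against 2.92% and 1.68% against 0.668%. The members' share was the higher in each of these strata, and it was smaller at higher counts. The part of GC and of counts in the members' share, and in the shares by distance, was not tested.

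The members most different between BALB/c subsets had next to no insertions in one of them. The member chr16:78161816-78162415, 139373 bp from Cxadr, held 0 and 0 CPM in BALB/c iNKT1, 6.46, 6.48 and 7.92 CPM in BALB/c iNKT2, 0 and 0.192 CPM in SKG iNKT1, and 0.357, 0.0918 and 0.135 CPM in SKG iNKT2 libraries. It was at least 130-fold higher in BALB/c iNKT2 than BALB/c iNKT1, with the group at 0 set to a floor of 3 insertions in all (edgeR adjusted p = 1.3e-07). The member chr9:51575048-51575417, 190104 bp from Arhgap20, held 5.49, 4.87 and 5.65 CPM in BALB/c iNKT2 and 0 in both BALB/c iNKT1 libraries, at least 99.9-fold higher (edgeR adjusted p = 1.3e-06). It was at 0 in both SKG iNKT1 libraries and in 2 of 3 SKG iNKT2 libraries. The member chr2:144941155-144941800, 117822 bp from Scp2d1, held 17.8, 18.3 and 23.6 CPM in BALB/c iNKT2 and 0.0299 and 0 CPM in BALB/c iNKT1 (edgeR adjusted p = 4.5e-09). In SKG iNKT2 these same 3 members were at 0 to 0.674 CPM, below every BALB/c iNKT2 library. Each was called lower there, with the last falling by 5.24 on the log2 scale (SE 0.29, edgeR adjusted p = 6.3e-08). These calls reuse the BALB/c iNKT2 libraries whose high level chose the 3 members, so they are not separate evidence of a genotype change.

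In the other direction, chr2:34139780-34140160 lay 233172 bp from Pbx3, a homeobox factor gene. It held 7.20 and 5.47 CPM in BALB/c iNKT1 and 0, 0.0529 and 0 CPM in BALB/c iNKT2 (edgeR adjusted p = 1e-07). The member chr9:118374688-118375126, 103305 bp from Eomes, held 9.17 and 8.55 CPM in BALB/c iNKT1 and 4.69 and 4.17 CPM in SKG iNKT1, and at most 0.157 CPM in any iNKT2 library. Its change between BALB/c subsets was -6.79 on the log2 scale (SE 0.44, edgeR adjusted p = 1.7e-08). The member chr9:61630363-61630687, 258159 bp from Tle3, a Groucho-family corepressor gene, held 6.51, 6.17, 8.48 and 8.08 CPM in the iNKT1 libraries and at most 0.119 CPM in iNKT2 libraries of either genotype. At each of the latter 2 members the iNKT1 and iNKT2 libraries did not overlap in either genotype.

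Of the members called between SKG subsets, chr13:28416135-28416486 in the desert before Sox4 held 0 in both SKG iNKT1 libraries and 3.24, 6.66 and 5.53 CPM in SKG iNKT2, at least 53.4-fold higher (edgeR adjusted p = 1.5e-06). It held 5.24, 8.04 and 9.11 CPM in BALB/c iNKT2. The member chr12:15603153-15603639, 213526 bp from Trib2, a pseudokinase gene, held 0 and 0.0642 CPM in SKG iNKT1 and 4.81, 8.63 and 7.42 CPM in SKG iNKT2 (edgeR adjusted p = 2.8e-07). Both were open in iNKT2 cells of either genotype. The member chr3:148745490-148745817, 244901 bp from Adgrl2, held 10.1 and 12.96 CPM in SKG iNKT1 and 1.73 and 1.76 CPM in BALB/c iNKT1, with at most 0.135 CPM in any iNKT2 library. It was called lower in SKG iNKT2 than SKG iNKT1, at -7.24 on the log2 scale (SE 0.44, edgeR adjusted p = 1.4e-08), and higher in SKG than BALB/c iNKT1, at 2.72 (SE 0.33, edgeR adjusted p = 0.0002). Both calls use the same SKG iNKT1 libraries. The members chr7:136271068-136271375, 554861 bp from Mki67, and chr1:154007166-154007849, near Teddm2, were also open in iNKT1 and near 0 in iNKT2 libraries of both genotypes.

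**Figure D2:**
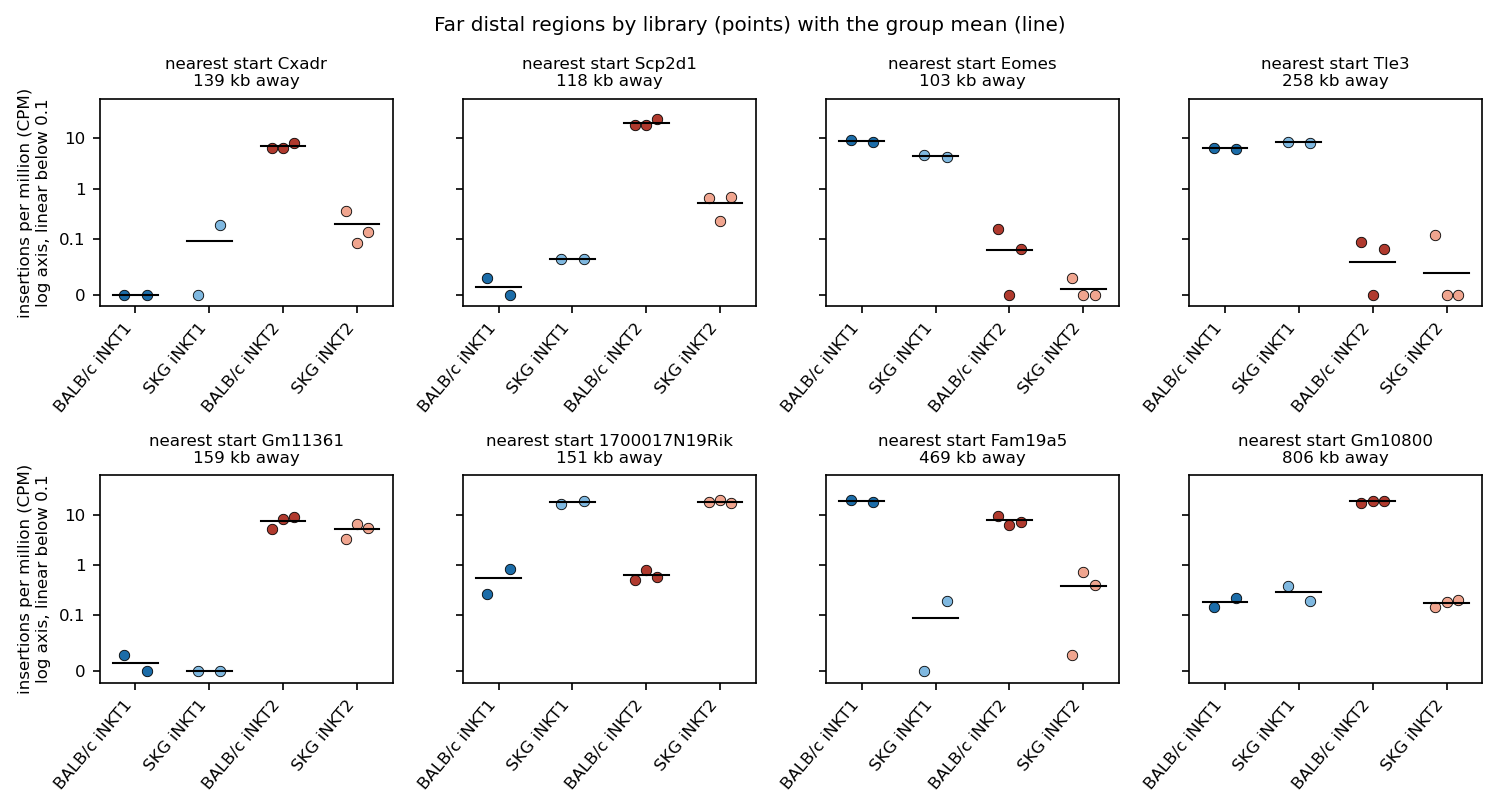
Levels of 8 far distal members, titled by nearest start and distance in kb, in CPM on a log axis that is linear below 0.1, with 1 point per library and the group mean as a line. The member nearest Gm10800, chr2:99472957-99473258, lies between 17.3 and 18.97 CPM in BALB/c iNKT2 and at or below 0.385 CPM in the other libraries.

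The subset comparisons of the 2 genotypes share no library, so their calls can be set side by side. Of 2020 members higher in BALB/c iNKT2 and 995 higher in SKG iNKT2, 828 were called in both, which is 41.0% of the BALB/c list and 83.2% of the SKG list. Of 635 members higher in BALB/c iNKT1 and 764 higher in SKG iNKT1, 521 were called in both, which is 82.1% and 68.2%. Over all regions the same shares were 49.3% and 75.2% toward iNKT2, and 76.1% and 69.5% toward iNKT1. Over the 2020 members higher in BALB/c iNKT2 the median log2 change was 3.61 in BALB/c, which chose them, and 2.20 in SKG. Over the 635 higher in BALB/c iNKT1 it was -2.92 and -3.33. In SKG, 1878 of the 2020 and 632 of the 635 changed with the same sign, and 1 and 0 were called the opposite way.

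**Figure D3:**
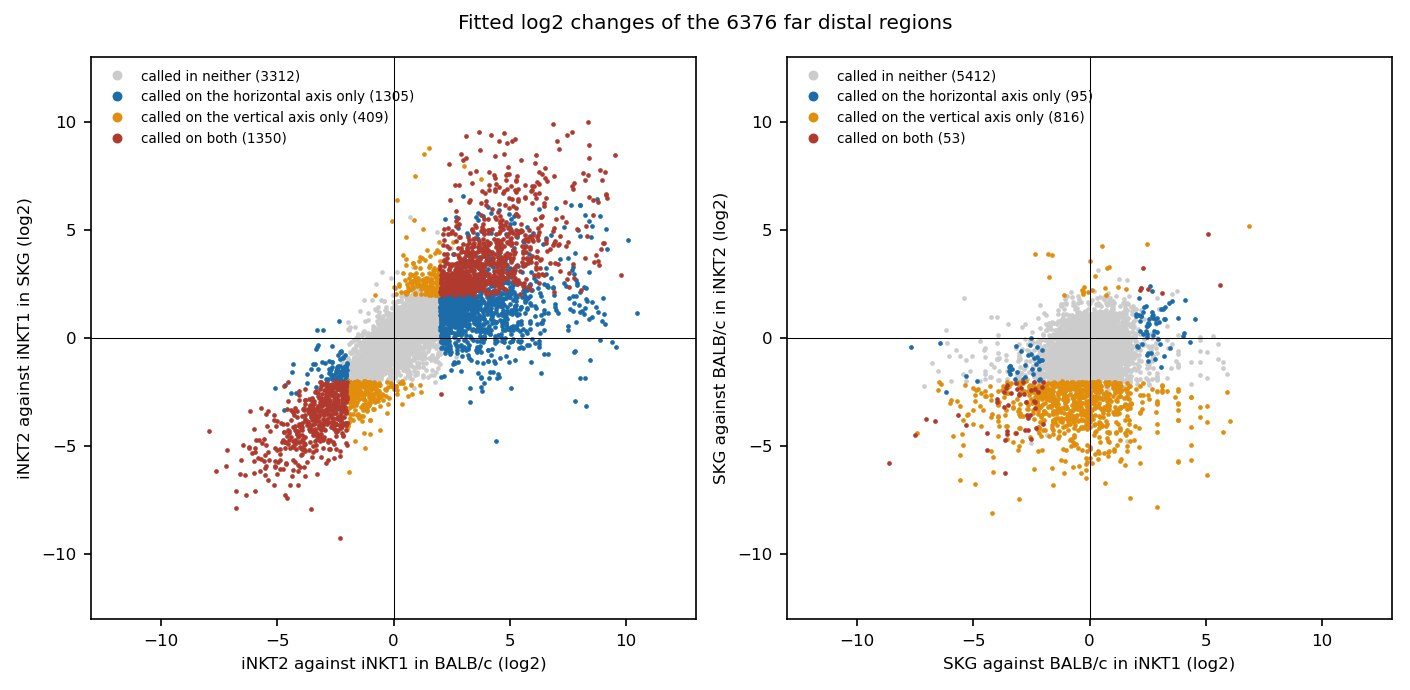
Fitted log2 change of each far distal member (point) between subsets in BALB/c (horizontal) against SKG (vertical), and between genotypes in iNKT1 against iNKT2, coloured by where the member was called. Between subsets 1305 members were called in BALB/c alone, 409 in SKG alone and 1350 in both, and between genotypes 95 were called in iNKT1 alone, 816 in iNKT2 alone and 53 in both.

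The genotype comparison in iNKT2 cells was nearly all in 1 direction. Of the members, 838 (13.1%) were less accessible in SKG iNKT2 than in BALB/c iNKT2 cells and 31 (0.486%) more accessible, beside 4.73% and 0.252% of all regions. Together 13.6% of members were called (12.8% to 14.5%), beside 4.99% of all regions, and the median log2 change was -0.45 against 0.01. Promoters were called in 0.797%, gene-body regions in 4.93% and other intergenic regions in 5.65%. Library totals without TMM factors moved the median of all regions to -0.12 and quantile normalization to 0.10. The iNKT17 marker Il17a moved with the genotype, at 8.32 CPM ± 1.61 (SD, n = 3) in BALB/c iNKT2 and 1.73 CPM ± 0.795 (SD, n = 3) in SKG iNKT2, while Il23r was at 6.04 ± 1.71 and 5.08 ± 1.05 CPM and Ccr6 at 0.937 ± 0.240 and 2.72 ± 0.329 CPM. Their part in the subset and genotype results was not tested.

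In iNKT1 cells the genotypes differed at 148 members. SKG iNKT1 cells had 67 members (1.05%) more accessible and 81 (1.27%) less accessible than BALB/c iNKT1 cells, beside 0.281% and 0.732% of all regions. Together 2.32% were called (1.98% to 2.72%), beside 1.01% of all regions. The balance turned with the scaling, with 45.3% of called members higher in SKG here, 62.5% with voom and TMM and 75% with quantile normalization. With 2 libraries a group the counts leaned on each library. Leaving out BALB/c iNKT1 replicate 1 gave 27 higher and 29 lower, and leaving out its replicate 2 gave 29 and 48. For SKG iNKT1, leaving out replicate 1 gave 41 and 24, and leaving out replicate 2 gave 30 and 35.

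The genotype comparisons of the 2 subsets share no library either. Of 81 members lower in SKG iNKT1, 46 were also called lower in SKG iNKT2, which is 56.8% of the first list and 5.49% of the 838 in the second. All 81 had a negative change in iNKT2 as well, with a median log2 change of -2.29, beside -2.93 in iNKT1, which chose them. Over all regions the shares were 42.1% and 6.51%. Of 67 members higher in SKG iNKT1 and 31 higher in SKG iNKT2, 7 were called in both (10.4% and 22.6%), beside 16.9% and 18.8% over all regions.

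The 3 members first named here as lower in SKG iNKT2 were open in BALB/c iNKT2 cells, and 2 of them were below 0.4 CPM in every library of the other groups. The member chr2:99472957-99473258 lay 805807 bp from the nearest start, Gm10800, in a desert that ends at Rag2. It held 17.3, 18.97 and 18.9 CPM in BALB/c iNKT2, 0.149, 0.184 and 0.202 CPM in SKG iNKT2, 0.149 and 0.220 CPM in BALB/c iNKT1, and 0.385 and 0.192 CPM in SKG iNKT1. It fell by 6.70 on the log2 scale in SKG iNKT2 (SE 0.27, edgeR adjusted p = 1.4e-09). The member chr16:64364454-64364843, 237759 bp from Csnka2ip, held 5.21, 6.35 and 5.94 CPM in BALB/c iNKT2 and 0, 0.230 and 0 CPM in SKG iNKT2, and fell by 6.24 (SE 0.53, edgeR adjusted p = 1.2e-06). It was at 0.0642 to 0.132 CPM in iNKT1 libraries. The member chr5:43113467-43113808, 119532 bp from Cpeb2, an RNA-binding protein gene, was lower in SKG in both subsets. It held 3.67 and 3.57 CPM in BALB/c iNKT1 against 0.578 and 0 CPM in SKG iNKT1, and 15.2, 16.4 and 17.1 CPM in BALB/c iNKT2 against 0.238, 0.230 and 0.135 CPM in SKG iNKT2. Its log2 changes were -3.63 (SE 0.51, edgeR adjusted p = 0.00062) and -6.23 (SE 0.38, edgeR adjusted p = 9.8e-08).

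Neighbouring members between Tbc1d22a and Fam19a5 on chromosome 15 were close to empty in SKG libraries of both subsets. The member chr15:87074495-87075235, 469434 bp from Fam19a5, held 19.3 and 17.6 CPM in BALB/c iNKT1 and 0 and 0.192 CPM in SKG iNKT1, and 9.60, 6.24 and 7.13 CPM in BALB/c iNKT2 and 0.0297, 0.735 and 0.405 CPM in SKG iNKT2. It was called lower in both subsets, falling by 4.47 on the log2 scale in iNKT2 (SE 0.47, edgeR adjusted p = 7.9e-06), and in iNKT1 the call (edgeR adjusted p = 2.9e-05) was lost under quantile normalization alone. The member next to it, chr15:87073801-87074421, was also called lower in both subsets, but its iNKT1 call was lost under quantile normalization, with voom and TMM and without either SKG iNKT1 library. Of the 5 members of this desert, chosen after their values were seen, 4 were called lower in SKG iNKT2 and 5 in SKG iNKT1. Their summed level was 50.3 and 45.2 CPM in BALB/c iNKT1, 0.0642 and 0.577 CPM in SKG iNKT1, 26.0, 17.8 and 18.5 CPM in BALB/c iNKT2, and 0.0297, 2.62 and 1.48 CPM in SKG iNKT2.

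Among members more accessible in SKG cells, the member chr10:100740973-100741611, inside a lncRNA gene 150808 bp from 1700017N19Rik, held 0.269 and 0.838 CPM in BALB/c iNKT1 and 16.4 and 18.7 CPM in SKG iNKT1. In iNKT2 it held 0.502, 0.794 and 0.577 CPM in BALB/c and 17.7, 19.2 and 16.8 CPM in SKG. It rose by 5.08 on the log2 scale in iNKT1 (SE 0.34, edgeR adjusted p = 3.5e-06) and by 4.81 in iNKT2 (SE 0.27, edgeR adjusted p = 6.3e-08), with no overlap between genotypes. The desert between 1700017N19Rik and Mgat4c, also chosen after its values were seen, held 11 members, of which 9 rose in SKG iNKT1 and 1 in SKG iNKT2, with 1 lower there. Its summed level was 14.6 and 14.0 CPM in BALB/c iNKT1, 123.5 and 145.2 CPM in SKG iNKT1, 22.6, 27.4 and 28.8 CPM in BALB/c iNKT2, and 55.1, 84.2 and 71.3 CPM in SKG iNKT2. SKG libraries lay above BALB/c libraries in both subsets.

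On chromosome 18, the desert between Gm5096 and Socs6, a suppressor of cytokine signalling gene, was open in SKG iNKT2 cells. Its member chr18:88254642-88254947, 498509 bp from Gm5096, held 0.439, 0.582 and 1.03 CPM in BALB/c iNKT2, 5.26, 14.9 and 9.98 CPM in SKG iNKT2 and at most 0.132 CPM in iNKT1 libraries. It rose by 3.90 on the log2 scale in SKG iNKT2 (SE 0.39, edgeR adjusted p = 4.7e-06), and its neighbour chr18:88122494-88122808 by 4.33 (SE 0.41, edgeR adjusted p = 3e-06). All 5 members of this desert, chosen after their values were seen, rose in SKG iNKT2. Their sum was 17.9, 43.7 and 29.2 CPM there, 1.44, 1.72 and 2.39 CPM in BALB/c iNKT2, and 0.514 to 0.926 CPM in iNKT1 libraries. In the adjoining desert between Cbln2 and Gm5096, 4 of 5 members rose in SKG iNKT2. These 9 members made up part of the 31 that rose in SKG iNKT2 in all.

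A change of genotype that itself differed between subsets was called at 90 members. The interaction, which is the genotype change of iNKT2 less the one of iNKT1, was called higher at 17 and lower at 73 members, 1.41% together (1.15% to 1.73%), beside 0.189%, 0.341% and 0.529% of all regions. The median over members was -0.38 log2 against 0.06 over all regions. With the replicate number as a block the counts were 28 higher and 113 lower. They also moved with most single libraries, to as few as 1 higher and 17 lower when SKG iNKT1 replicate 1 was left out and 5 and 10 when BALB/c iNKT1 replicate 2 was, and to as many as 26 and 114 when SKG iNKT2 replicate 1 was. For the other iNKT1 libraries they were 6 and 20 (BALB/c replicate 1) and 7 and 13 (SKG replicate 2), and for BALB/c iNKT2 they were 10 and 44 (replicate 2) and 9 and 37 (replicate 3). The higher calls numbered 26 when BALB/c iNKT2 replicate 1 was left out and 11 when SKG iNKT2 replicate 3 was.

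The member chr12:25958508-25959096 in the Id2 to Rnf144a desert, 456452 bp from Rnf144a, dropped in SKG iNKT1. It held 38.1 and 36.9 CPM in BALB/c iNKT1, 6.04 and 6.61 CPM in SKG iNKT1, 48.3, 45.7 and 37.8 CPM in BALB/c iNKT2 and 38.9, 27.9 and 40.5 CPM in SKG iNKT2. The SKG iNKT1 libraries stood alone below the rest. Its genotype change was -2.57 (SE 0.20, edgeR adjusted p = 6.4e-06) in iNKT1 and -0.30 (SE 0.15, edgeR adjusted p = 0.14) in iNKT2, with an interaction of 2.27 (SE 0.25, edgeR adjusted p = 0.00049) that was lost under quantile normalization. The member chr15:67410051-67410377, 233384 bp from St3gal1, a sialyltransferase gene, held 5.64 and 3.92 CPM in BALB/c iNKT1 and 17.2 and 19.3 CPM in SKG iNKT1, but 25.7, 22.1 and 22.0 CPM in BALB/c iNKT2 and 13.1, 11.3 and 12.9 CPM in SKG iNKT2. The genotypes stood in opposite order in the subsets, and the interaction was -2.82 (SE 0.25, edgeR adjusted p = 0.00021). The member chr16:5368766-5369148, 112974 bp from Eef2kmt, had the same opposite order, with 0.508 and 0.529 CPM in BALB/c iNKT1, 4.56 and 4.17 CPM in SKG iNKT1, 3.58, 3.78 and 4.21 CPM in BALB/c iNKT2 and 1.90, 1.19 and 1.35 CPM in SKG iNKT2. Its interaction was -4.41 (SE 0.40, edgeR adjusted p = 0.00021).

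The searched motifs were counted in the central 300 bases of every region. T-box letters were in 7.72% of the 635 members higher in BALB/c iNKT1, 1.04% of the 2020 higher in BALB/c iNKT2, 2.09% of all members and 1.91% of all regions. Runx letters were in 14.0%, 7.92%, 8.64% and 5.74%. NFAT letters were in 17.4% of the 838 members lower in SKG iNKT2, 11.1% of the 81 lower in SKG iNKT1, 8.94% of all members and 6.54% of all regions. AP-1 letters were in 18.5%, 24.7%, 13.5% and 10.6% of the same 4 sets, and Egr letters in 1.55%, 2.47%, 0.863% and 1.38%. TCF/LEF letters were in 3.12% of members higher in BALB/c iNKT2, 1.89% of those higher in BALB/c iNKT1, 2.31% of all members and 1.70% of all regions. ETS letters were in 10.9% of members and 8.47% of all regions, E protein letters in 8.12% and 9.21%, NF-kB letters in 1.68% and 1.47%, and CTCF letters in 1.96% and 2.83%. Regions called alike over the whole genome gave like shares. Over all regions lower in SKG iNKT2, NFAT, AP-1 and Egr letters were in 15.8%, 16.3% and 2.16%. Over all regions lower in SKG iNKT1 they were in 14.8%, 26.2% and 4.04%. T-box and Runx letters were in 8.16% and 10.8% of all regions higher in BALB/c iNKT1. Of all regions higher in BALB/c iNKT2, 3.49% held TCF/LEF letters. The shares were not tested.

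Members lay in groups along the chromosome. Joined where successive midpoints lay within 20 kb with no other region between them, they formed 320 stretches of 5 or more members that held 3058 members (48.0%), while 1365 members stood alone. The largest stretch held 83 members. Of 879 neighbouring pairs of which both members were called between BALB/c subsets, 845 (96.1%) were called in the same direction. The share was 509 of 533 (95.5%) between SKG subsets, and between genotypes it was 37 of 37 pairs in iNKT1 and 207 of 207 in iNKT2. In iNKT2, 838 of the 869 members called between genotypes were lower in SKG, so most pairs there would agree whatever their position. Pairs of nearer non-promoter regions gave 95.6% and 94.5% between subsets, and 85 of 85 and 868 of 868 between genotypes. Runs of 3 or more successive members called alike numbered 78 toward BALB/c iNKT2 and 34 toward BALB/c iNKT1, with the longest at 13 and 6 members. Toward SKG iNKT2 there were 43 and toward SKG iNKT1 38. Runs lower in SKG iNKT2 numbered 19, the longest at 9 members, and 1 run was higher there. In iNKT1 there was 1 run of each direction. These counts moved with the joining distance. At 10 kb and 50 kb the stretches held 30.6% and 65.5% of members, the runs toward BALB/c iNKT2 numbered 38 and 120, those toward BALB/c iNKT1 20 and 42, those toward SKG iNKT2 25 and 57, those toward SKG iNKT1 23 and 50, and those lower in SKG iNKT2 11 and 38.

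**Figure D4:**
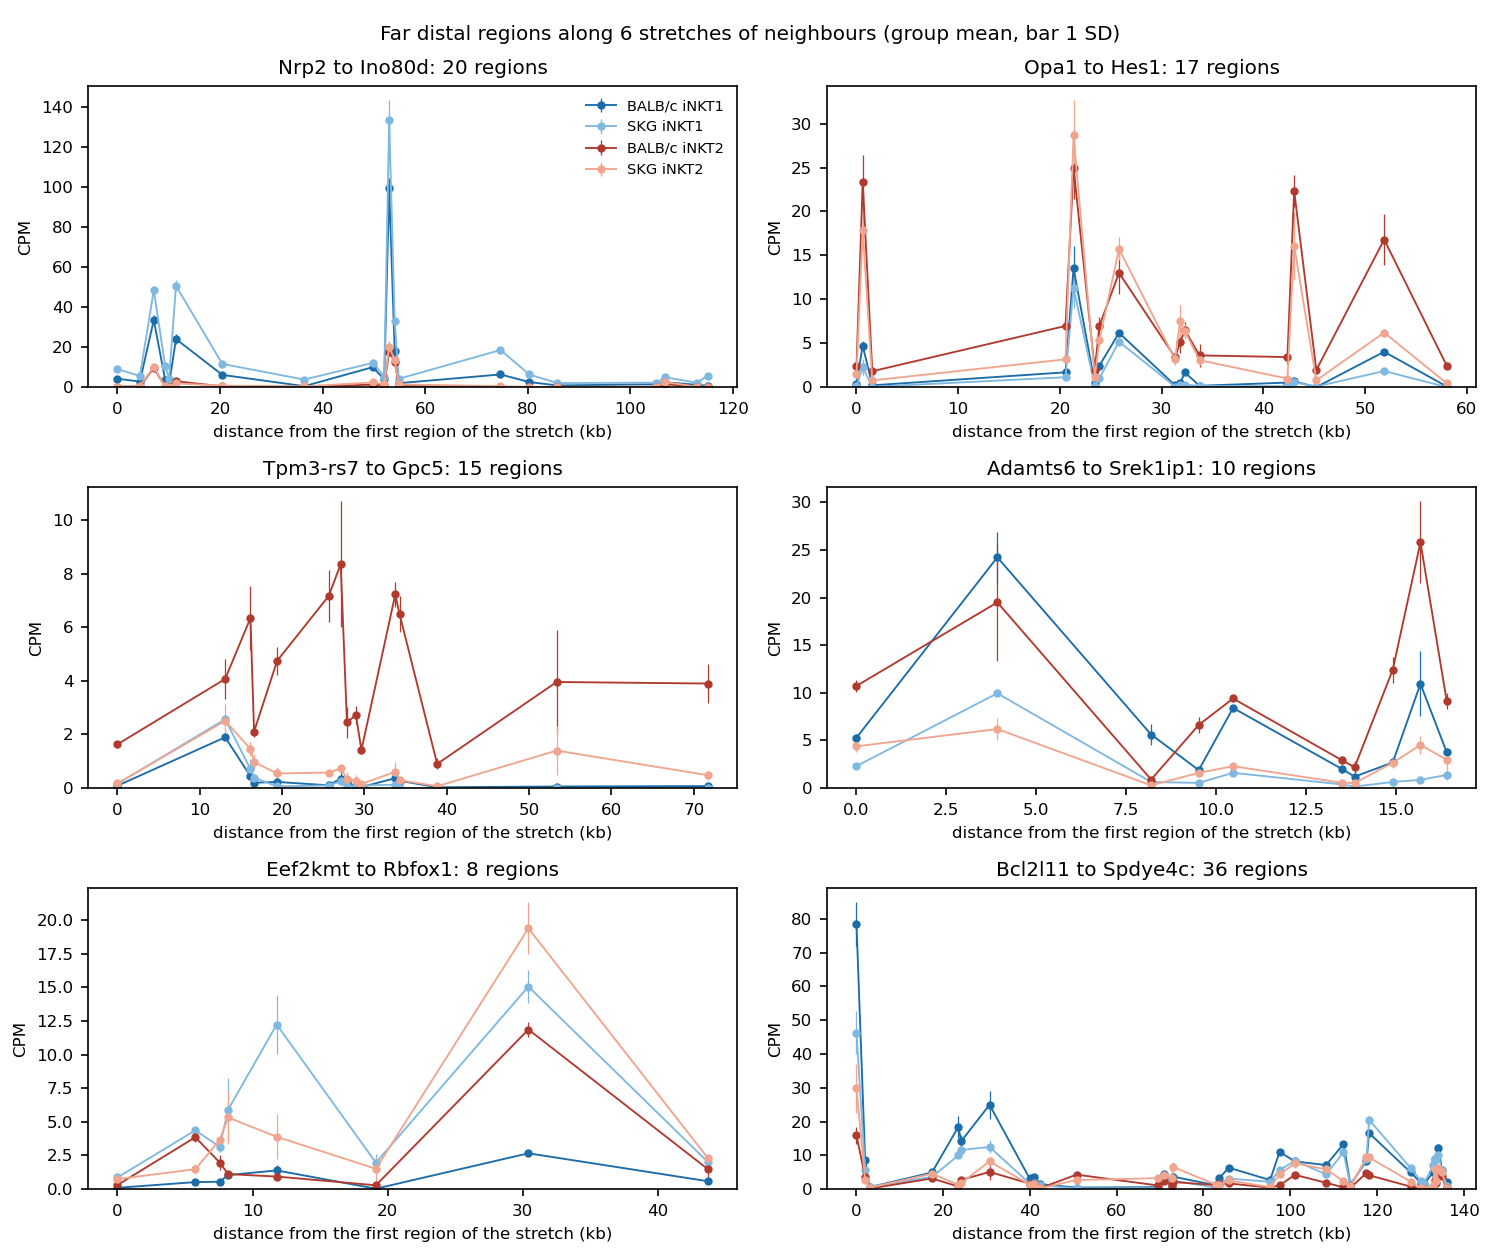
Level of each member along 6 stretches, in CPM against distance in kb from the first member, with group means as joined points and bars of 1 SD (n = 2 for iNKT1 and n = 3 for iNKT2 groups). In the Tpm3-rs7 to Gpc5 stretch the BALB/c iNKT2 means lie above those of the other 3 groups.

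Some stretches followed the iNKT1 subset in both genotypes. The stretch chr1:62822753-62938193 between Nrp2 and Ino80d held 20 members over 115.4 kb, overlapping the lncRNA gene Gm4208. Its summed level was 218.1 and 230.6 CPM in BALB/c iNKT1, 364.5 and 382.5 CPM in SKG iNKT1, 47.4, 49.0 and 51.7 CPM in BALB/c iNKT2 and 55.3, 59.98 and 53.1 CPM in SKG iNKT2. All iNKT1 libraries lay above all iNKT2 libraries, and SKG iNKT1 above BALB/c iNKT1. Of its members, 14 were higher in BALB/c iNKT1 and 16 in SKG iNKT1, the latter with a run of 9. The member of smallest adjusted p, chr1:62875503-62876371, held 96.0 and 103 CPM in BALB/c iNKT1 and 16.5, 17.3 and 19.3 CPM in BALB/c iNKT2, or -2.49 on the log2 scale for iNKT2 over iNKT1 (SE 0.14, edgeR adjusted p = 5.6e-09).

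The stretch chr2:128294602-128431213 between Bcl2l11, which encodes the pro-apoptotic protein Bim, and Spdye4c held 36 members over 136.6 kb. It overlaps the lncRNA genes Gm14005, also called Morrbid, and Gm14010. Its summed level was 287.9 and 312 CPM in BALB/c iNKT1, 205.4 and 231.1 CPM in SKG iNKT1, 94.0, 81.9 and 77.6 CPM in BALB/c iNKT2 and 149.9, 133.2 and 141.7 CPM in SKG iNKT2. The sums stood farther apart between subsets in BALB/c than in SKG, with 14 members called higher in BALB/c iNKT1 and 6 in SKG iNKT1, and 1 and 2 higher in iNKT2. At 5 members the interaction was called, each in the higher direction. One of them, chr2:128407048-128407483, held 13.5 and 13.3 CPM in BALB/c iNKT1, 10.7 and 11.1 CPM in SKG iNKT1, 0.596, 0.503 and 0.412 CPM in BALB/c iNKT2 and 2.29, 2.53 and 2.23 CPM in SKG iNKT2. Its interaction was 2.49 (SE 0.30, edgeR adjusted p = 0.00078). At chr2:128392377-128392705, 198668 bp from Spdye4c, it was 2.91 (SE 0.34, edgeR adjusted p = 0.00062), and that call was lost without SKG iNKT1 replicate 1.

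The stretch chr15:60119926-60195443 between 4933412E24Rik and Fam84b held 25 members, of which 16 were higher in BALB/c iNKT1, 7 in SKG iNKT1 and 3 in SKG iNKT2 than BALB/c iNKT2. Its sum was 290.2 CPM ± 23.2 (SD, n = 2) in BALB/c iNKT1, 328.3 ± 7.01 (n = 2) in SKG iNKT1, 95.6 ± 2.83 (n = 3) in BALB/c iNKT2 and 160.1 ± 1.28 (n = 3) in SKG iNKT2. The stretch chr12:25294412-25463026 between Id2, which encodes an inhibitor of E proteins, and Rnf144a held 32 members, of which 9 were higher in BALB/c iNKT1, 12 in SKG iNKT1 and 2 in BALB/c iNKT2. Among them chr12:25394246-25394757, 297362 bp from Id2, changed by -3.40 on the log2 scale between SKG subsets (SE 0.23, edgeR adjusted p = 3.3e-08). Toward iNKT2, the stretch chr16:29813387-29871761 between Opa1 and Hes1, a Notch target gene, held 17 members, of which 13 were higher in iNKT2 in each genotype. Its sum was 35.8 and 38.7 CPM in BALB/c iNKT1, 21.3 and 27.3 CPM in SKG iNKT1, 129.9, 160.1 and 150.8 CPM in BALB/c iNKT2 and 115.2, 109.9 and 131.1 CPM in SKG iNKT2. Its member chr16:29856236-29856905, 207813 bp from Hes1, rose by 5.13 in BALB/c iNKT2 (SE 0.30, edgeR adjusted p = 7e-09) and by 4.87 in SKG iNKT2 (SE 0.33, edgeR adjusted p = 2.8e-08).

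Other stretches followed genotype. The stretch chr13:104606765-104623556 between Adamts6 and Srek1ip1 held 10 members over 16.8 kb, and 6 were lower in SKG in each subset. Its sum was 70.0 and 62.1 CPM in BALB/c iNKT1, 18.4 and 18.5 CPM in SKG iNKT1, 110.5, 94.0 and 94.5 CPM in BALB/c iNKT2 and 27.7, 21.1 and 29.3 CPM in SKG iNKT2. No SKG library reached a BALB/c library of either subset, but the stretch was chosen by its calls between genotypes, so this is not separate evidence. Its member chr13:104622422-104622857 fell by 3.66 in SKG iNKT1 (SE 0.33, edgeR adjusted p = 1.8e-05), a call lost under quantile normalization, and by 2.50 in SKG iNKT2 (SE 0.21, edgeR adjusted p = 1.2e-06).

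The stretch chr14:114841578-114913579 between Tpm3-rs7 and Gpc5, a glypican gene, was open in BALB/c iNKT2 cells. Its 15 members summed to 4.09 and 4.80 CPM in BALB/c iNKT1, 4.75 and 4.49 CPM in SKG iNKT1, 54.8, 67.8 and 67.9 CPM in BALB/c iNKT2 and 8.08, 11.3 and 12.5 CPM in SKG iNKT2. Of them 14 were higher in BALB/c iNKT2 than iNKT1, with 13 in 1 run, 5 were higher between SKG subsets and 12 were lower in SKG iNKT2. Its member chr14:114875815-114876171 fell by 4.54 in SKG iNKT2 (SE 0.31, edgeR adjusted p = 3.5e-07). The stretch chr3:37825625-37908157 between Gm5148 and Ankrd50 held 11 members, of which 8 were higher in BALB/c iNKT2 and 7 lower in SKG iNKT2. It summed to 67.9 CPM ± 1.83 (SD, n = 3) in BALB/c iNKT2 and 14.7 ± 3.85 (n = 3) in SKG iNKT2.

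Of the 3 stretches with most calls between genotypes in iNKT1, 2 had SKG iNKT1 libraries above BALB/c iNKT1 libraries. The stretch chr3:39974193-40005143 between Fat4 and Intu summed over 8 members to 4.06 and 4.41 CPM in BALB/c iNKT1, 32.1 and 33.2 CPM in SKG iNKT1, 31.2, 38.4 and 39.1 CPM in BALB/c iNKT2 and 39.8, 63.5 and 62.2 CPM in SKG iNKT2. All 8 were higher in BALB/c iNKT2 than BALB/c iNKT1, 5 rose in SKG iNKT1, and 0 were called between SKG subsets by edgeR (3 at an unadjusted p below 0.05, 0 by DESeq2 and 0 by voom). Its member chr3:39979302-39979857 rose by 2.91 in SKG iNKT1 (SE 0.27, edgeR adjusted p = 2.3e-05). The stretch chr16:5363043-5407077 between Eef2kmt and Rbfox1 summed over 8 members to 7.08 and 6.66 CPM in BALB/c iNKT1, 42.0 and 49.1 CPM in SKG iNKT1, 21.02, 22.0 and 22.4 CPM in BALB/c iNKT2 and 43.9, 39.5 and 31.4 CPM in SKG iNKT2. Of these, 6 rose in SKG iNKT1 in 1 run and 3 rose in SKG iNKT2. The largest stretch, chr6:31071642-31240468 between Klf14 and Mkln1 over the lncRNA gene Lncpint, held 83 members, and edgeR called 0 between genotypes in either subset (17 in iNKT1 and 25 in iNKT2 at an unadjusted p below 0.05, 0 by DESeq2 and 0 by voom). Of these 83, 8 were called between BALB/c subsets and 13 between SKG subsets.

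**Figure D5:**
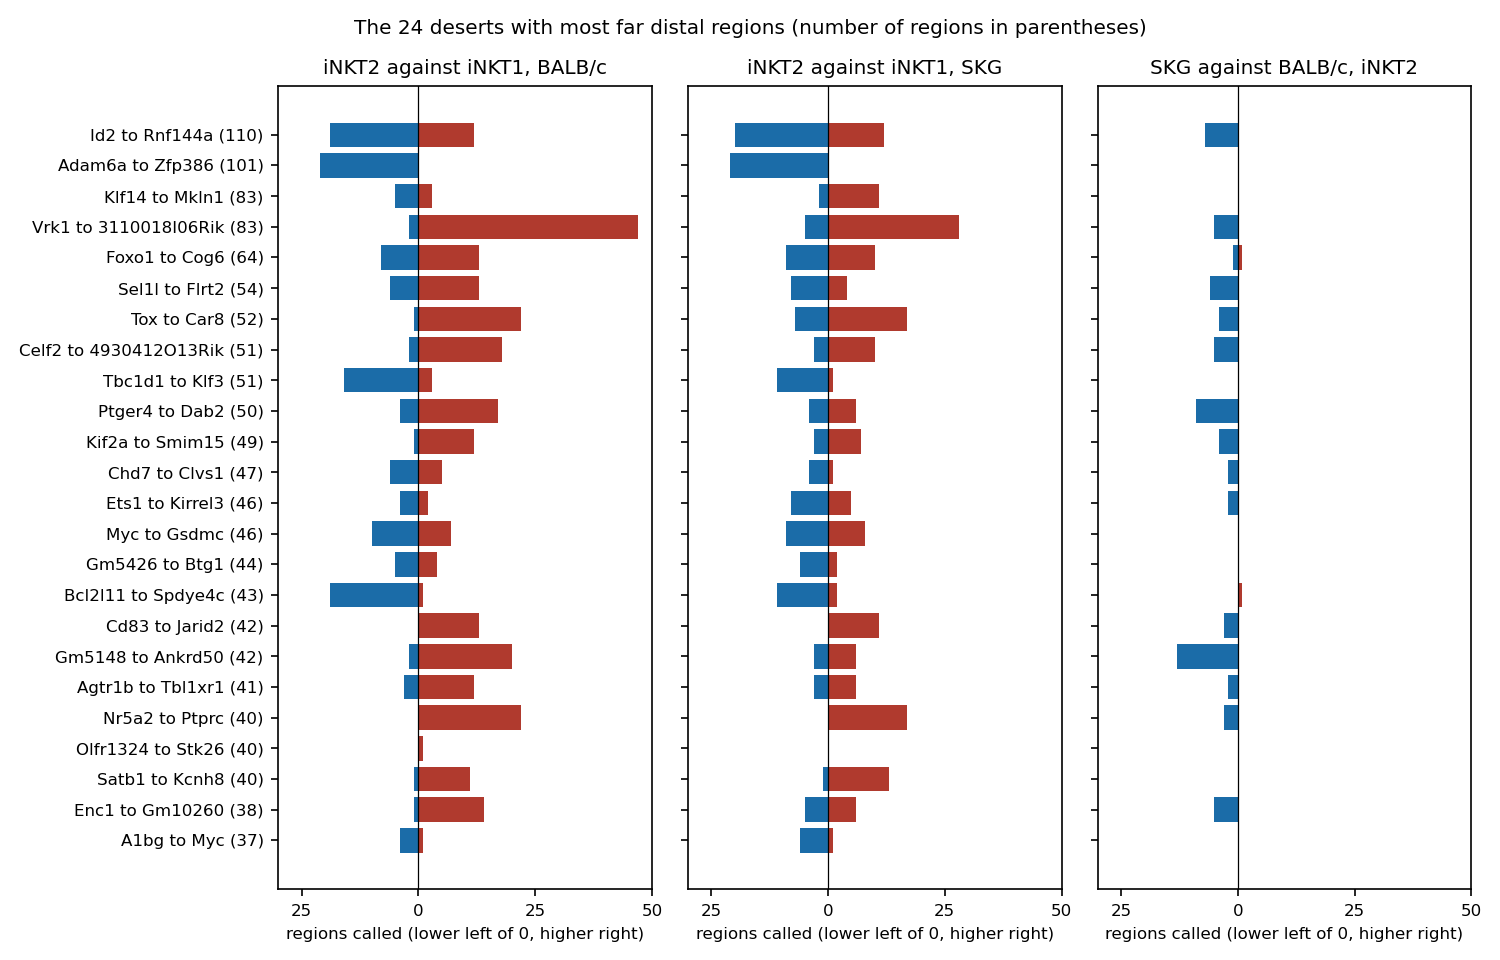
Number of far distal members called higher (right of 0) and lower (left of 0) in 3 comparisons, for the 24 deserts with most members, whose number is in parentheses. In the Vrk1 to 3110018I06Rik desert 47 of 83 members were higher in BALB/c iNKT2 and 2 lower, and in the Adam6a to Zfp386 desert 21 of 101 were lower.

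A desert here is the DNA between successive protein-coding starts. Members lay in 978 deserts, of which 185 held at least 10 members. Of these 185, 56 had 3 or more calls toward BALB/c iNKT2 and none toward BALB/c iNKT1. A further 10 had 3 or more toward BALB/c iNKT1 and none toward BALB/c iNKT2, and 96 had calls in both directions. Between genotypes in iNKT2, 62 had 3 or more members lower in SKG and none higher, 2 had 3 or more higher and none lower, and 3 had both. Deserts with fewer calls, all in a single direction, are in none of these classes. The deserts described next were chosen after their values were seen.

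The desert between Gm11361 and Sox4, an HMG-box factor gene of lymphoid progenitors, held 29 members at chr13:28416135-28839435. All 29 were higher in BALB/c iNKT2, with a median log2 change of 4.56, and 24 in SKG iNKT2, with a median of 3.57. They summed to 26.4 and 23.5 CPM in BALB/c iNKT1, 18.2 and 24.4 CPM in SKG iNKT1, 325.2, 356.9 and 348.4 CPM in BALB/c iNKT2 and 248.2, 283.5 and 331.1 CPM in SKG iNKT2. The iNKT2 libraries of both genotypes lay far above all iNKT1 libraries, and 1 member was called between genotypes. The desert between Cd109 and Col12a1 on chromosome 9 held 28 members, of which 27 were higher in BALB/c iNKT2, 11 in SKG iNKT2 and 19 lower in SKG iNKT2 than BALB/c iNKT2. They summed to 17.8 and 15.2 CPM in BALB/c iNKT1, 6.94 and 7.96 CPM in SKG iNKT1, 121.4, 142.4 and 147 CPM in BALB/c iNKT2 and 24.9, 26.4 and 34.4 CPM in SKG iNKT2. The BALB/c iNKT2 libraries stood apart from all others.

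The desert between Jag1, which encodes a Notch ligand, and Btbd3 held 20 members at chr2:137224343-137978170, of which 16 were lower in SKG iNKT2 and 4 in SKG iNKT1. The median log2 changes over the 20 were -2.56 and -1.72. They summed to 88.4 and 89.4 CPM in BALB/c iNKT1, 21.8 and 21.4 CPM in SKG iNKT1, 146, 142.3 and 155 CPM in BALB/c iNKT2 and 12.4, 32.6 and 26.3 CPM in SKG iNKT2, so that SKG libraries lay below BALB/c libraries in both subsets. The desert between Ndfip2 and Spry2, which encodes a feedback inhibitor of receptor tyrosine kinase and ERK signalling, held 14 members. Of these, 11 were lower in SKG iNKT2 and 2 in SKG iNKT1, and 0 were called between subsets in either genotype by edgeR. At an unadjusted p below 0.05 there were 8 in BALB/c and 7 in SKG, DESeq2 called 0 and 1, and voom 0. Toward iNKT1, the desert between Sulf2 and Prex1 had 16 of 22 members higher in iNKT1 in both genotypes, and the desert between Prok2 and Rybp had 5 of 6, of which 5 rose in SKG iNKT1. The latter summed to 8.60 and 9.04 CPM in BALB/c iNKT1 and 39.8 and 45.5 CPM in SKG iNKT1, against at most 5.35 CPM in iNKT2 libraries.

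The balance of calls varied among the deserts with most members. The Id2 to Rnf144a desert spans 1318 kb and held 110 members, with 12 higher in BALB/c iNKT2, 19 in BALB/c iNKT1, 4 lower in SKG iNKT1 and 7 lower in SKG iNKT2. The desert between Vrk1 and 3110018I06Rik, on the side of Bcl11b, a zinc-finger factor gene of T cell commitment, held 83 members, with 47 higher in BALB/c iNKT2 and 2 in BALB/c iNKT1, and 28 and 5 in SKG. The immunoglobulin heavy chain locus between Adam6a and Zfp386 held 101 members, with 21 higher in iNKT1 in each genotype. Between genotypes edgeR called 0 there, as did DESeq2 and voom, with 6 in iNKT1 and 16 in iNKT2 at an unadjusted p below 0.05. It summed to 594.4 and 533.1 CPM in BALB/c iNKT1, 625.9 and 679.2 CPM in SKG iNKT1, 281.3, 235.1 and 259.7 CPM in BALB/c iNKT2 and 276.5, 342.7 and 292.5 CPM in SKG iNKT2. All 169 members in receptor loci together gave 3 calls toward BALB/c iNKT2 and 28 toward BALB/c iNKT1.

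Of 97 listed genes of T and iNKT cell biology, 39 were the nearest start of a member, with 545 members in all. The list was drawn up with results of these data known and includes genes the study picked from these libraries, so it is not independent evidence of a direction. Of the 545, 113 were higher in BALB/c iNKT2 and 64 in BALB/c iNKT1 (32.5% together), 87 in SKG iNKT2 and 73 in SKG iNKT1 (29.4%), and the 41 called between genotypes in iNKT2 were lower in SKG (7.52%). In iNKT1, 2 were higher and 6 lower in SKG (1.47%). In the same order of comparisons, all members were called in 41.6%, 27.6%, 13.6% and 2.32%, and all regions in 21.9%, 17.1%, 4.99% and 1.01%. The median log2 change between BALB/c subsets was -0.03 over the 545 and 0.83 over all members. edgeR called the interaction at 0 of the 545, with 143 at an unadjusted p below 0.05, 8 called by DESeq2 and 0 by voom.

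Of all members, 31.7% were higher in BALB/c iNKT2 and 15.6% in SKG iNKT2, beside 15.5% and 10.2% of all regions. Toward iNKT2, all 14 members nearest Sox4 were higher in BALB/c iNKT2 and 11 in SKG iNKT2. Of 39 members nearest Tox, an HMG-box factor gene needed for T cell development, 17 were higher in BALB/c iNKT2 and 15 in SKG iNKT2, and 4 were higher in SKG iNKT1. Its member chr4:7499307-7499939, 508066 bp away, held 0.777 and 0.617 CPM in BALB/c iNKT1 and 10.1, 11.8 and 10.1 CPM in BALB/c iNKT2, a rise of 3.91 (SE 0.28, edgeR adjusted p = 3.6e-08). Of 22 nearest Maf, a bZIP factor gene, 9 were higher in BALB/c iNKT2 and 7 in SKG iNKT2. Its member chr8:115390894-115391463, 316615 bp away, rose by 5.04 in BALB/c iNKT2 (SE 0.55, edgeR adjusted p = 1.6e-06). Of 18 nearest Runx1, which encodes a factor of T cell development, 10 were higher in BALB/c iNKT2, 6 in SKG iNKT2, 1 in SKG iNKT1 and 3 lower in SKG iNKT2 than BALB/c iNKT2. All 5 nearest Mycn were higher in BALB/c iNKT2 and 3 in SKG iNKT2. Their sum was 0.209 and 0.309 CPM in BALB/c iNKT1 and 6.27, 12.5 and 14.4 CPM in BALB/c iNKT2.

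Of all members, 9.96% were higher in BALB/c iNKT1 and 12.0% in SKG iNKT1, beside 6.36% and 6.96% of all regions. Toward iNKT1, 16 of 63 members nearest Id2 were higher in BALB/c iNKT1 and 18 in SKG iNKT1, while 3 were higher in BALB/c iNKT2 and 1 in SKG iNKT2. Its member chr12:25211362-25211735, 114409 bp away, held 10.8 and 10.2 CPM in BALB/c iNKT1 and 0.0941, 0.132 and 0.0825 CPM in BALB/c iNKT2, a change of -6.56 (SE 0.38, edgeR adjusted p = 7.5e-09). Of 51 nearest Myc, 11 were higher in iNKT1 in each genotype and 3 in BALB/c iNKT2 and 4 in SKG iNKT2, and chr15:62177718-62178361, 192649 bp away, changed by -2.43 (SE 0.22, edgeR adjusted p = 2.5e-07). Of 16 nearest Ifng, the gene of the iNKT1 cytokine, 7 were higher in BALB/c iNKT1 and 4 in SKG iNKT1, and 1 was higher in iNKT2 in each genotype, with sums of 163.1, 163.2, 148.3 and 157.9 CPM in the iNKT1 libraries and 54.97 to 65.3 CPM in iNKT2 libraries. Both members nearest Eomes and 2 of 3 nearest Bach2, a repressor gene, were higher in iNKT1 in each genotype. The Eomes members summed to 30.7 and 32.4 CPM in BALB/c iNKT1, 22.1 and 22.2 CPM in SKG iNKT1 and at most 1.19 CPM in iNKT2 libraries. Members nearest Ets1 (chr9:32914674-32915085), Foxo1 (chr3:52498465-52499186) and Bcl11b (chr12:107749540-107750119) changed toward iNKT1 by -3.85, -2.58 and -2.85 between BALB/c subsets, although the members called toward BALB/c iNKT2 and iNKT1 numbered 2 and 4 for Ets1, 5 and 5 for Foxo1 and 5 and 2 for Bcl11b. Of the 21 members nearest Klf6, 6 were higher in BALB/c iNKT2 and 2 in BALB/c iNKT1, and chr13:5312969-5313302 changed toward iNKT2 by 4.21. The members of smallest p nearest Satb1 (chr17:52148998-52149421) and Cxcr4 (chr1:128786814-128787619) were at -1.68 and -1.24 and did not reach the fold limit.

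Between genotypes, the listed genes with most calls were Spry2 and Jag1, both picked by the study from these libraries. Of all members, 13.1% were lower in SKG iNKT2 and 1.27% in SKG iNKT1. All 8 members nearest Spry2, 163.7 to 312 kb away, were lower in SKG iNKT2 and 2 in SKG iNKT1. Their sum was 27.0 and 26.9 CPM in BALB/c iNKT1, 7.39 and 5.77 CPM in SKG iNKT1, 31.5, 20.7 and 26.1 CPM in BALB/c iNKT2 and 3.66, 2.85 and 4.72 CPM in SKG iNKT2. Of 9 nearest Jag1, 7 were lower in SKG iNKT2 and 3 in SKG iNKT1, with a sum of 80.8 and 82.2 CPM in BALB/c iNKT1, 20.3 and 19.1 CPM in SKG iNKT1, 96.8, 103.9 and 112.5 CPM in BALB/c iNKT2 and 9.15, 24.7 and 19.1 CPM in SKG iNKT2. At both genes every SKG library lay below every BALB/c library. Of 3 members nearest Pdcd1, the gene of the inhibitory receptor PD-1, 2 were lower in SKG iNKT2. The sum there was 4.58, 3.52 and 4.70 CPM in BALB/c iNKT2 and 0.475, 0.643 and 0.674 CPM in SKG iNKT2, and 2.63 to 4.18 CPM in iNKT1 libraries. Of 9 nearest Dusp6, which encodes an ERK phosphatase, 2 were higher in SKG iNKT1.

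The 3 members of highest level lay within lncRNA genes. The highest, chr13:107888214-107891766, lay 74 bp from the start of Zswim6, which GENCODE M21 types as a processed transcript and so not as protein-coding, and it shows a limit of the rule. It held 289 CPM ± 10.2 (SD, n = 2) in BALB/c iNKT1 and 196 ± 16.0 (SD, n = 3) in BALB/c iNKT2. The other two, chr6:31215116-31218885 in the Klf14 to Mkln1 desert and chr1:7396815-7398308 at the start of Gm26901, were not called in any comparison either. In all, 225 members (3.53%) lay within 1 kb of a lncRNA start, beside 3.95% of all regions. Of 79 members at least 1 kb wide, 8 (10.1%) were called between BALB/c subsets.

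The members farthest from a start lay in the desert of 4996 kb between Cntnap5b and Cdh20 on chromosome 1, which held 11 members. Of these, 9 were higher in BALB/c iNKT2, 5 were lower in SKG iNKT2 and 0 were called between SKG subsets by edgeR (4 at an unadjusted p below 0.05, 1 by DESeq2 and 0 by voom). The farthest, chr1:102358006-102358381, was 2410335 bp from Cdh20 and held 0.119 and 0.220 CPM in BALB/c iNKT1 and 1.44, 2.14 and 3.09 CPM in BALB/c iNKT2, a rise of 3.73 (SE 0.72, edgeR adjusted p = 0.00035). The others named, chr1:102378628-102378927 and chr1:102021298-102021604, rose by 2.93 and 5.86 in BALB/c iNKT2 and were called lower in SKG iNKT2. At the other end, the members nearest the limit were chr3:17848258-17848557, 100002 bp from Cypt12, and chr14:78436629-78436968, 100009 bp from Akap11. The regions just under it were chr10:67648768-67649115 at 99987 bp and chr3:138642064-138642385 at 99970 bp.

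On the X chromosome, 60 of 222 members (27.0%) were higher in BALB/c iNKT2 and 10 (4.5%) in BALB/c iNKT1. The shares were 31.7% and 9.96% of all members and 15.5% and 6.36% of all regions. The 17 called between genotypes in iNKT2 (7.66%) were lower in SKG, beside 13.1% of all members and 4.73% of all regions. The stretch chrX:50549796-50635586 at Firre, a lncRNA gene of repeated elements, held 38 members, of which 1 was called between BALB/c subsets. In the other 3 pairwise comparisons edgeR, DESeq2 and voom called 0, with 10 between SKG subsets, 17 between genotypes in iNKT1 and 5 in iNKT2 at an unadjusted p below 0.05. Its sum was 427.1 and 455.6 CPM in BALB/c iNKT1, 712.3 and 755.2 CPM in SKG iNKT1, 490.7, 634.9 and 607.6 CPM in BALB/c iNKT2 and 556.0, 842.6 and 266.5 CPM in SKG iNKT2. SKG iNKT2 replicate 3 was the lowest library there, and also at the Xist start, with 19.4 CPM against 42.3 to 77.4 CPM in the other libraries. Its part in the genotype results on the X chromosome was not tested.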

How the data were processed

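ATAC-seq was done on 10 libraries in 4 groups, taken from the labels. The authors aligned reads to mm10 (Bowtie 1.0), trimmed and realigned those left unmapped, and removed duplicates and mitochondrial reads. They called summits per replicate with MACS2 on subnucleosomal fragments, widened and merged them, and removed chromosome Y and blacklisted regions. They analysed normalized values. The deposited values are named as normalized counts, but are whole numbers whose totals differ between libraries. These values were treated here as insertions per region, and the count models, depths and floor rest on that reading. Depth was 14988590 to 36342635 insertions per library. All 94823 regions were fitted without a filter by edgeR 4.0.16 (quasi-likelihood, TMM, R 4.3.3), with Benjamini-Hochberg adjustment over all regions. Annotation was GENCODE M21 (GRCm38), read with Python 3.11 and pandas 2.3.3. Alternatives used DESeq2 1.42.0 and limma 3.58.1, and the fit was tested on simulated data. The members, the lists and the alternatives were chosen with earlier results of these data known.

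Named members were, per pairwise comparison and direction, the 3 called members of largest change whose groups did not overlap and whose higher group reached 5 CPM, the 2 of smallest adjusted p per direction of the interaction, the lead member of the 3 stretches with most calls in 1 direction, the member of smallest p for each of the 10 listed genes with most members, the 3 of highest level, the 3 farthest from a start and the 2 regions on each side of the 100 kb limit. Same-numbered BALB/c and SKG iNKT2 libraries deviated together from their group means (r = 0.446, 0.136 and 0.156 over regions). The numbers come from the sample titles. They entered only an alternative fit, with the replicate number as a block over all libraries, and the main fit paired no libraries. Different-numbered pairs reached 0.207 (BALB/c replicate 3 with SKG replicate 2) and 0.139 (BALB/c replicate 2 with SKG replicate 3), so beyond replicate 1 the correlation did not follow the number. The iNKT1 libraries gave -0.00207. The intervals and the floor of 3 insertions cover counting error only. A further marker is not reported here.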

Additional observations from a re-analysis of the deposited data

Results flagged for a closer look

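The difference between the genotype changes of the 2 subsets was itself tested (edgeR interaction, adjusted over all regions). It was called, at an adjusted p below 0.01 and at least 4-fold, at 8 named members, beside 1.41% of all members and 0.529% of all regions. The 2 per direction named for their interaction were chosen by its p, so their call follows from the choice. The others were named from pairwise comparisons of the same libraries, so this number is no separate evidence. The named members chr16:5393409-5393845 (-1.78, edgeR adjusted p = 0.0014) and chr3:39979302-39979857 (-1.96, edgeR adjusted p = 0.0048) passed the p limit but not the fold limit. The genotype change, SKG over BALB/c, was smaller in iNKT2 than in iNKT1 by the given log2 amount at chr10:100695944-100696335 (-2.87, SE 0.37, edgeR adjusted p = 0.001), where SKG libraries lay above BALB/c libraries in both subsets, and at chr5:46073244-46073629 near Lcorl (-3.93, SE 0.37, edgeR adjusted p = 0.00021), where the libraries held 0.717 and 0.793 CPM in BALB/c iNKT1, 6.81 and 9.75 CPM in SKG iNKT1, 4.67, 4.39 and 3.46 CPM in BALB/c iNKT2 and 2.70, 3.08 and 3.30 CPM in SKG iNKT2. At chr2:99472957-99473258 it was -7.38 (SE 0.74, edgeR adjusted p = 0.00032), where BALB/c iNKT2 libraries alone were high. At chr15:67410051-67410377 (-2.82) and chr16:5368766-5369148 (-4.41) the genotypes stood in opposite order in the subsets. The difference was positive at chr12:25958508-25959096 (2.27), where SKG iNKT1 libraries were low, and at both named members of the Bcl2l11 to Spdye4c stretch, chr2:128392377-128392705 (2.91) and chr2:128407048-128407483 (2.49), where SKG iNKT2 libraries lay above BALB/c iNKT2 libraries and SKG iNKT1 below BALB/c iNKT1.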

How the results depend on the processing

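Counts are of members called higher and lower in the first-named group. The cause of each move was not tested, apart from settings that test fewer regions or use other limits. Between BALB/c subsets, iNKT2 over iNKT1, quantile normalization gave 1254 higher, leaving out regions in the lower quartile of mean insertions 992 and 358, an adjusted p below 0.05 with 2-fold 1196 lower and an adjusted p below 0.01 with no fold limit 1351 lower. The share called was 36.4% with a 50 kb limit and 46.7% with 200 kb. Between SKG subsets, quantile normalization gave 371 higher, voom with TMM 579 higher, the quartile filter 495 lower, the 2-fold limit 1897 and 1370, no fold limit 1512 and 1409, and the distance limits 25.55% and 29.6%. For SKG over BALB/c iNKT1, quantile normalization gave 33 and 11, voom with TMM 30 lower, the 2 groups alone 132 lower, the floor subtracted (added after seeing the data, as were GC trend removal and leaving out receptor loci) 49 lower, the 2-fold limit 203 and 283 and no fold limit 123 and 149. For SKG over BALB/c iNKT2, quantile normalization gave 92 higher, the floor subtracted 116 higher, the quartile filter 15 and 349, the 2-fold limit 170 and 1754 and no fold limit 218 and 1483, and the share was 11.1% with 50 kb, 15.5% with 200 kb and 14.8% outside lncRNA genes. For the interaction, DESeq2 gave 28 and 235, library totals 9 higher, quantile normalization 6 and 24, the replicate block 28 and 113, voom with TMM 11 and 41, the 2-fold limit 100 and 346 and no fold limit 36 higher.

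Leaving out each library gave 27 to 74 higher and 24 to 108 lower for SKG over BALB/c iNKT1 and 1 to 26 higher and 10 to 114 lower for the interaction. For SKG over BALB/c iNKT2 it gave 21 to 35 higher and 701 to 860 lower, and in both subset comparisons each count stayed within 1.5 times. The replicate block moved no other count by over 1.5 times, and no named member changed direction under any alternative. Depth limits low members most: the median member held 20 to 96.5 insertions per library, with the lowest median in SKG iNKT1 replicate 1.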
